A study of Mus musculus with 8 samples.

Results

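Oxidative phosphorylation (OXPHOS) genes were taken by symbol from the gene table of an RNA-seq experiment in mouse primary cardiac fibroblasts. All rows whose symbol begins with Ndufa, Ndufb, Ndufc, Ndufs, Ndufv, Uqcr, Cox4i, Cox5, Cox6, Cox7, Cox8, Atp5, mt-Nd, mt-Co, mt-Cyb or mt-Atp were members, as were Sdha, Sdhb, Sdhc, Sdhd and Cyc1. The rule found 109 members among the 22274 rows of the table, of which 97 were nuclear and 12 were encoded in mitochondrial DNA. No measured value entered the rule. The prefix Ndufa also takes 8 assembly factors of complex I (Ndufaf1 to Ndufaf8), which were kept as a group of their own, and Ndufa4 and Ndufa4l2 were counted with complex IV, where the Ndufa4 protein resides. The pseudogene Cox5b-ps was left out, and mt-Cytb, which the rule misses by its spelling, is described beside the members.

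OXPHOS is carried out in the inner mitochondrial membrane. Complex I (NADH dehydrogenase) and complex II (succinate dehydrogenase) pass electrons to ubiquinone, complex III passes them to cytochrome c, complex IV (cytochrome c oxidase) reduces oxygen, and complex V (ATP synthase) uses the resulting proton gradient to make ATP. Complexes I, III, IV and V are built from subunits of both genomes, whereas complex II is made from nuclear genes only.

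Primary cardiac fibroblasts from mouse heart were transduced with a control virus (libraries labelled GFP, n = 4; an empty vector in the study's text) or with a virus for IRF7, an interferon regulatory transcription factor (libraries labelled OEIRF7, n = 4). Every library of both groups came from cells given TGF-β, a cytokine that turns fibroblasts into myofibroblasts, at 5 ng/ml for 24 h, so no untreated cells entered the comparison. The labels name the 4 libraries of a group as separate samples without saying whether they came from separate animals or cultures, so the p-values measure the spread between these libraries, which may be technical. The series text names an adeno-associated virus and the study's text an adenovirus, and the strain, sex and age of the mice are not given in the labels.

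Total counts ran from 24888589 to 27095611 in the GFP libraries and from 24454801 to 28658826 in the OEIRF7 libraries. The targeted gene did not check the labels. Mouse Irf7 had 2272 to 3680 counts in the GFP libraries and 380 to 421 in those labelled OEIRF7. That is opposite to the label (log2 fold change -2.96 ± 0.12 SE, edgeR adjusted p = 7.72e-11). The study lists its IRF7 adenovirus as carrying human IRF7, whose reads need not be counted in the mouse gene. Its adeno-associated virus is listed with mouse Irf7. The group is therefore called by its label, and every direction given here would reverse if the labels were exchanged. Fibroblast markers summed to 13050 to 13489 CPM (counts per 1000000 counted reads, after TMM scaling) in GFP and 12158 to 13169 CPM in OEIRF7. Of these 8 markers 2 were called higher and 4 lower (75%, against 58.9% of all tested genes), with log2 fold changes of -1.33 to 0.25. Of 11 cardiomyocyte markers 10 were under 1 CPM, with Myl3 at 0 in every library. GFP replicate 2 stood apart by higher levels of genes with short transcripts and of the nuclear members, the longer ones included. Counts of calls that moved without it are given with and without it.

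Of the 109 members, 102 passed the filter on low counts and were tested. The other 7 were the second Atp5o identifier with 0 counts in every library, Ndufb11b with 2 counts in all, and the complex IV isoforms Cox8c, Cox8b, Cox7b2, Cox7a1 and Cox6a2, none of which reached 12 counts in any library. At an adjusted p under 0.05 (edgeR's quasi-likelihood test, Benjamini-Hochberg over 13533 genes), 15 members were higher and 20 were lower in the libraries labelled OEIRF7, and 67 were not called. That is 34.3% of the tested members, against 58.9% of all tested genes (29% higher, 29.9% lower). By genome of origin, all 12 mitochondrially encoded members were called lower, whereas of 90 tested nuclear members 15 were higher, 8 were lower and 67 were not called.

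The mitochondrially encoded mRNAs were abundant and lower in every OEIRF7 library as a sum. Their summed level was 35869, 35319, 34058 and 35557 CPM in GFP 1 to 4 and 27552, 28301, 26835 and 26259 CPM in OEIRF7 1 to 4. The groups did not overlap, and the OEIRF7 mean was 0.774 times the GFP mean. As shares of the total count the sums were 3.38% to 3.55% in GFP and 2.65% to 2.87% in OEIRF7. The summed level of the nuclear members was 5543, 6001, 5782 and 5506 CPM in GFP 1 to 4 and 5813, 5661, 5757 and 5737 CPM in OEIRF7 1 to 4. Here the groups overlapped, GFP replicates 2 and 4 being the highest and the lowest of all 8, and the ratio of the means was 1.01. The ratio of mitochondrial to nuclear summed CPM was accordingly 5.89 to 6.47 in the GFP libraries and 4.58 to 4.999 in the OEIRF7 libraries. In bulk RNA, fewer copies per cell cannot be told apart from a different share of cells that carry more of them.

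**Figure D1:**
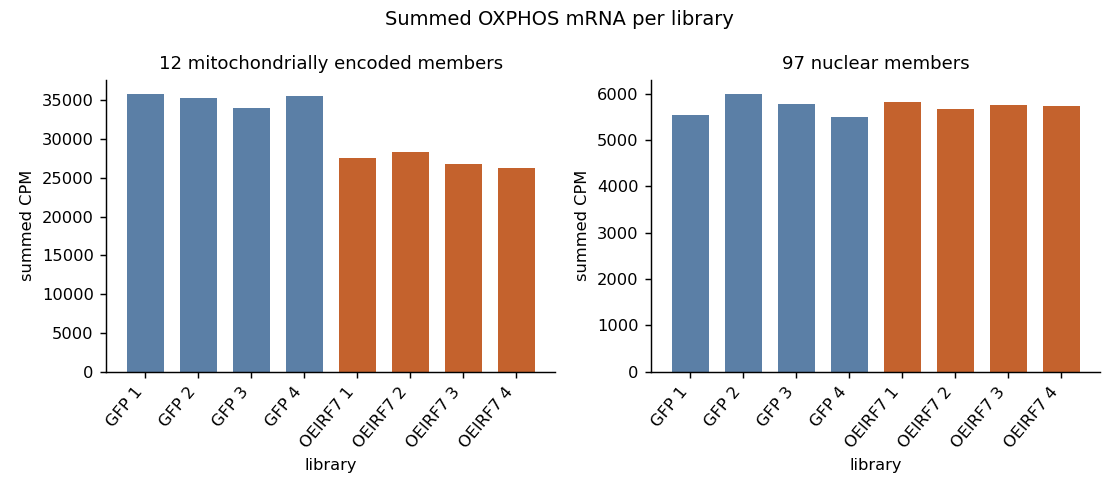
Summed CPM of the 12 mitochondrially encoded (left) and 97 nuclear (right) OXPHOS members in each library, with bars for the 4 GFP (blue) and 4 OEIRF7 (orange) libraries. Mitochondrial sums of 26259 to 28301 CPM in OEIRF7 lie below all GFP sums, while the nuclear sums of both groups overlap.

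Complex I takes 7 core subunits from mitochondrial DNA, all within the proton-pumping membrane arm. mt-Nd2 (chrM:3914-4951, GRCm38) had the largest fall of them, with 1580, 1450, 1529 and 1631 CPM in GFP 1 to 4 and 1118, 1147, 998 and 1067 CPM in OEIRF7 1 to 4. All OEIRF7 values lay below all GFP values, and the log2 fold change was -0.52 ± 0.04 (SE; edgeR adjusted p = 1.3e-07). mt-Nd4 (chrM:10167-11544) went from 3105 ± 143 to 2290 ± 106 CPM (SD, n = 4 each) and mt-Nd5 (chrM:11742-13565) from 2894 ± 178 to 2195 ± 72.6 CPM. mt-Nd1 (chrM:2751-3707) had the smallest fall, 19.9%, from 3220 ± 105 to 2580 ± 158 CPM. In each of these 3 genes the groups were apart. mt-Nd6 (chrM:13552-14070), the one protein gene of the opposite strand, fell by 25.6% from 535 ± 36.2 to 398 ± 25.5 CPM, and mt-Nd3 (chrM:9459-9806) by 24.6% from 265 ± 40.7 to 200 ± 24.4 CPM.

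In complex IV, mt-Co1, mt-Co2 and mt-Co3 encode the catalytic core, and mt-Co1 had the highest level per length of all members, 8485 ± 210 FPKM (the authors' fragment value scaled to gene length and depth) in GFP and 6832 ± 112 FPKM in OEIRF7. In CPM, mt-Co1 (chrM:5328-6872) stood at 13492, 12975, 12897 and 13590 in GFP 1 to 4 and at 10301, 10629, 10619 and 10299 in OEIRF7 1 to 4. The spread within each group was small beside the gap, with a log2 fold change of -0.34 ± 0.02 (SE; edgeR adjusted p = 1.27e-08). mt-Co2 (chrM:7013-7696) fell by 22.2% and mt-Co3 (chrM:8607-9390) by 19.9%, again without overlap. Complex V holds mt-Atp6, part of the proton channel, and mt-Atp8. mt-Atp6 (chrM:7927-8607) was at 2829, 2800, 2689 and 2717 CPM in GFP and at 2073, 2132, 1981 and 1962 CPM in OEIRF7, a fall of 26.2%. mt-Cytb (chrM:14145-15288), the mitochondrial subunit of complex III, was lower as well, at 3324, 3256, 3072 and 3286 CPM in GFP and 2300, 2422, 2257 and 2194 CPM in OEIRF7 (log2 fold change -0.50 ± 0.03 SE, edgeR adjusted p = 1.06e-08).

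The shortest 2 of these genes, mt-Atp8 (204 bases) and mt-Nd4l (297 bases), were the exceptions in that their groups overlapped, so the groups of 10 of the 12 members did not overlap, where 53.8% of all tested genes did not overlap and 27% had all OEIRF7 libraries below. mt-Atp8 was at 87.3, 161, 96.5 and 83.9 CPM in GFP 1 to 4 and at 89.3, 75.2, 60.7 and 40.6 CPM in OEIRF7 1 to 4. mt-Nd4l was at 158, 262, 158 and 142 CPM in GFP and at 158, 144, 123 and 107 CPM in OEIRF7. For both genes GFP replicate 2 was far above the other libraries, and OEIRF7 replicate 1, for mt-Nd4l also OEIRF7 replicate 2, lay within the range of the GFP libraries. The log2 fold changes were -0.69 ± 0.22 for mt-Atp8 and -0.43 ± 0.16 for mt-Nd4l (SE; edgeR adjusted p = 0.0134 and 0.0311). Without GFP replicate 2, mt-Nd4l had a log2 fold change of -0.20 and was no longer called (edgeR adjusted p = 0.0993), and its call was also lost without OEIRF7 replicate 3 or 4 and under DESeq2 and limma. mt-Atp8 lost its call under DESeq2 (DESeq2 adjusted p = 0.075).

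Both genes share bases with their downstream neighbour on the same strand, which limits which reads can be given to either. The last 60 bases of mt-Atp8 and of mt-Nd4l in the annotation (GRCm38, plus strand) are shown with the bases shared with the next reading frame in capitals, which begin with the ATG start codon of that frame.
mt-Atp8, chrM:7910-7969: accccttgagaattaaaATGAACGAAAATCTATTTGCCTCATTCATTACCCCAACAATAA
mt-Nd4l, chrM:10114-10173: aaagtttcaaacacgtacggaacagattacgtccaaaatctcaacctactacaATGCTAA
The overlap takes 43 of the 204 bases of mt-Atp8 (21.1%) and 7 of the 297 bases of mt-Nd4l (2.36%). mt-Nd5 and mt-Nd6 share 14 bases on opposite strands. How overlapping reads were counted, whether strand was used, and how reads shared with nuclear copies of mitochondrial DNA were treated are not given in the sources used here.

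**Figure D2:**
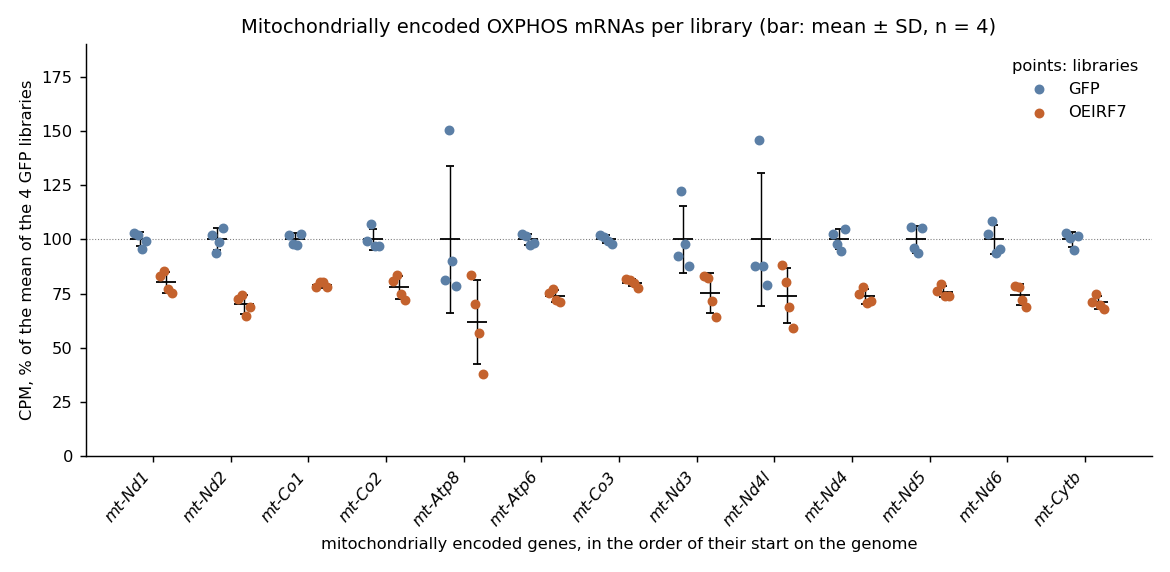
CPM of the 13 mitochondrially encoded protein genes, mt-Cytb included, as a percentage of the mean of the GFP libraries (points are libraries, bars mean ± SD, n = 4 a group). OEIRF7 points lie below GFP points in every gene except mt-Atp8 and mt-Nd4l, where GFP replicate 2 is highest at 161 and 262 CPM.

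Across the 12 members the log2 fold changes spanned -0.69 to -0.32 with a median of -0.42, and their direction was the same under every alternative scaling, filter and tool. The number called lower was 12 under most of them, 10 under DESeq2 and 11 under limma or without GFP replicate 2, OEIRF7 replicate 3 or OEIRF7 replicate 4. Only 1 of the 12, mt-Atp8, also passed a fold change of 1.5, a rule that 18.6% of all tested genes met. The largest fall among the 12 was -0.55 in log2 without GFP replicate 2 and -0.51 without OEIRF7 replicate 4. Neither reached that fold change. The cardiomyocyte markers, from a cell type rich in mitochondria, summed to 9.95 to 13.7 CPM in GFP and 7.74 to 9.89 CPM in OEIRF7, nearly all of it from Tnnt2. Macrophage markers summed to 250 to 299 CPM in GFP and 306 to 339 CPM in OEIRF7, and endothelial markers to 173 to 181 and 168 to 189 CPM. Mural markers summed to 65.7 to 72.4 CPM in GFP and 77.3 to 97.3 CPM in OEIRF7, but did not move together. Of the 4 tested mural markers 2 were called higher and 1 lower. As group means Cspg4 went from 22.4 to 63.3 CPM and Notch3 from 41.4 to 13.6 CPM. The mural sum therefore does not show more mural cells. The part of these other cell types in the result was not tested.

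The nuclear members were mostly close to each other in both groups. Their median log2 fold change was 0.06 and the median size of the change 0.10, against 0.25 over all tested genes. For 64 of 90 (71.1%) the 95% interval of the fold change lay within 1.25-fold in either direction, as it did for 34.6% of all tested genes. The 67 nuclear members that were not called spanned log2 fold changes of -0.21 to 0.22. Per length, as the mean of both groups, these mRNAs were far below the mitochondrial ones, with a median of 47.9 FPKM against 1673 FPKM. By that mean Atp5b, the catalytic beta subunit of ATP synthase, was the only one above the least abundant mitochondrial member, mt-Atp8. In GFP alone Atp5b was below mt-Atp8, at 451 against 520 FPKM, and in OEIRF7 above it, at 437 against 329 FPKM.

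The count of nuclear members called higher depended on single libraries of both groups. It was 15 with all libraries, 33 without GFP replicate 2, 7 without GFP replicate 1, 10 without GFP replicate 4 and 9 without OEIRF7 replicate 1. Length was taken as each gene's longest annotated transcript, 6310 bases for Atp5l and 3038 for Cox6c, which need not be the transcript expressed. Against their own group, the 25 nuclear members under 800 bases by that length deviated by a median log2 of 0.19 in GFP replicate 2, -0.09 in GFP replicate 1 and -0.11 in GFP replicate 4, and the 65 longer ones by 0.10, -0.05 and -0.06. All 224 tested genes under 800 bases moved likewise, by 0.14, -0.05 and -0.08 in the same libraries. The 13293 tested genes of 800 bases or more did not, at -0.0015, 0.0024 and 0.0044, unlike the longer nuclear members. With library sizes in place of TMM factors the split of nuclear calls was 26 higher and 7 lower, and with the length trend of each library removed it was 15 and 15. The number called lower lay between 7 and 9 whichever library was left out.

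**Figure D3:**
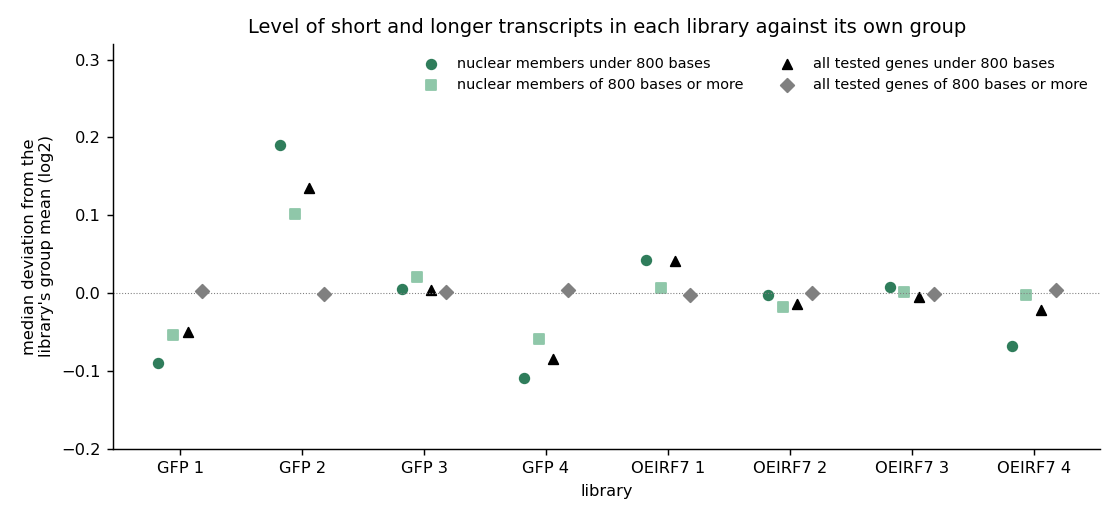
Median deviation (log2) of each library from the mean of its own group, for nuclear members and for all tested genes, split at 800 bases of the longest annotated transcript. For short nuclear members GFP replicate 2 is at 0.19 and GFP replicates 1 and 4 at -0.09 and -0.11, while the OEIRF7 libraries lie between -0.07 and 0.04.

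Among the 37 tested nuclear subunits of complex I, 6 were higher, 2 were lower and 29 were not called (21.6% called, against 58.9% of all tested genes). The number called higher was 12 without GFP replicate 2, 3 without GFP replicate 1 and 10 with library sizes only, and the number called lower was 1 under limma and 6 with the length trend removed. Ndufc2 (chr7:97400003-97407802), an accessory subunit of the membrane arm, changed most. Its level was 22.5, 26.0, 24.2 and 24.8 CPM in GFP 1 to 4 and 13.9, 14.1, 15.4 and 15.0 CPM in OEIRF7 1 to 4. The groups were well apart and the log2 fold change was -0.74 ± 0.06 (SE; edgeR adjusted p = 1.43e-07), a fall of 40.2%. Ndufc2 overlaps Gm16053 on the same strand. The other fall was that of the core subunit Ndufs1, from 101 ± 3.68 to 90.7 ± 0.541 CPM, and this gene overlaps Eef1b2 on the opposite strand. In FPKM, the values that limma used, Ndufs1 was at 38.7 ± 1.47 in GFP and 37.1 ± 1.14 in OEIRF7. Ndufc2 was at 41.8 ± 2.67 and 25.9 ± 0.918 FPKM.

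The 6 rises in complex I were small. Among them were the core subunit Ndufs7 (18.1 ± 1.73 to 21.1 ± 0.865 CPM) and the accessory subunits Ndufa9 (45.8 ± 2.71 to 53.5 ± 2.40 CPM), Ndufb3, Ndufv3 and Ndufa8. In log2 they ran from 0.17 for Ndufa8 to 0.22 for Ndufb3, and the groups overlapped for Ndufb3 and Ndufv3. Ndufa9 overlaps 1700018A23Rik on the opposite strand. The calls of Ndufb3, Ndufs7 and Ndufv3 were lost without GFP replicate 1 (edgeR adjusted p = 0.0658, 0.0569 and 0.0596), those of Ndufb3 and Ndufv3 also without GFP replicate 4, and each of these 2 without 1 OEIRF7 library (replicate 1 for Ndufb3, replicate 4 for Ndufv3). The call of Ndufv3 was lost under limma with either pseudocount as well (limma adjusted p = 0.0715 and 0.071). Other core subunits stayed within narrow intervals, such as Ndufv1, which binds NADH, at 51.1 and 50.7 CPM (95% interval of the log2 fold change -0.10 to 0.08). None of the 8 assembly factors Ndufaf1 to Ndufaf8 was called with all libraries, their log2 fold changes being -0.13 to 0.21, but 2 were called higher without GFP replicate 2 and 1 without OEIRF7 replicate 3.

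No subunit of complex II, the dehydrogenase shared with the tricarboxylic acid cycle, was called with all libraries. Sdha, its flavoprotein, was at 202, 204, 195 and 198 CPM in GFP and at 186, 190, 190 and 195 CPM in OEIRF7 (log2 fold change -0.07 ± 0.03 SE, edgeR adjusted p = 0.0588). Every OEIRF7 value of Sdha was below every GFP value, though by little. For the iron-sulfur subunit Sdhb and the membrane anchors Sdhc and Sdhd the groups overlapped, with log2 fold changes of 0.10, 0.04 and 0.06. All 4 intervals lay within 1.25-fold. Both Sdha and Sdhb passed the threshold under some alternatives. Sdha was called lower under DESeq2 (DESeq2 adjusted p = 0.0486), without OEIRF7 replicate 4 (edgeR adjusted p = 0.0432) and with the length trend removed (edgeR adjusted p = 0.0402). Sdhb was called higher without GFP replicate 2 or OEIRF7 replicate 2 (edgeR adjusted p = 0.0359 and 0.0274), with library sizes only, with at least 10 counts required in every library and under limma.

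Complex III had 3 rises and no nuclear fall among 9 genes with all libraries (33.3% called, against 58.9% of all tested genes), and 1 member was called lower without GFP replicate 2 or with the length trend removed. Uqcr10 (chr11:4701973-4704342), a small subunit, was at 23.5, 27.6, 26.9 and 22.7 CPM in GFP and 31.9, 30.02, 31.1 and 28.3 CPM in OEIRF7. Its groups did not overlap (log2 fold change 0.27 ± 0.07 SE, edgeR adjusted p = 0.00345). Uqcrfs1, the Rieske iron-sulfur protein, rose by 16.9% from 70.0 ± 2.79 to 81.9 ± 2.37 CPM, also without overlap. Uqcrh, the hinge protein, was called at 0.22 ± 0.09 on the log2 scale (SE) with overlapping groups, and lost its call without GFP replicate 1, 3 or 4 or OEIRF7 replicate 1 or 2. Cyc1, the cytochrome c1 subunit, was at 49.5 ± 0.581 and 50.9 ± 0.650 CPM and not called.

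Of 15 tested nuclear genes of complex IV, 4 were higher and 2 were lower (40% called, against 58.9% of all tested genes). The number called higher was 7 without GFP replicate 2 and 2 without GFP replicate 1, GFP replicate 3 or OEIRF7 replicate 1, and also 2 with a minimum of 1 count in total. The number called lower was 1 without GFP replicate 2, under limma or with at least 10 counts required in every library, and 4 with the length trend removed. Ndufa4l2 (chr10:127514967-127517154), a relative of Ndufa4 known to be induced in low oxygen, was at 2.50, 2.96, 2.07 and 1.91 CPM in GFP and 3.88, 3.76, 3.89 and 4.62 CPM in OEIRF7. The groups were apart and the log2 fold change was 0.77 ± 0.16 (SE; edgeR adjusted p = 0.000719), while Ndufa4 itself was at 65.1 ± 5.05 and 65.7 ± 1.99 CPM. Ndufa4l2 overlaps Shmt2 on the opposite strand.

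Cox6b2, the testis isoform of subunit VIb, had 31, 31, 25 and 32 counts in GFP and 4, 10, 4 and 12 counts in OEIRF7. That is a log2 fold change of -2.0 ± 0.33 (SE; edgeR adjusted p = 0.000117), at a level of about 1 CPM or less. The ubiquitous Cox6b1 was at 72.0 ± 6.79 and 78.5 ± 4.70 CPM and not called with all libraries. Cox6b1 was called higher without GFP replicate 2 (log2 fold change 0.19, edgeR adjusted p = 0.00403), without OEIRF7 replicate 4, with library sizes only and with the replicate number as a block (edgeR adjusted p = 0.0437, 0.0459 and 0.0184). Cox4i2, the lung isoform of subunit IV, had 2, 11, 8 and 12 counts in GFP and 17, 15, 20 and 20 in OEIRF7. Its log2 fold change was 1.09 ± 0.40 (SE; edgeR adjusted p = 0.0295), and the call was lost under DESeq2, with a minimum of 1 count in total and when GFP replicate 1 or 3 or OEIRF7 replicate 1, 3 or 4 was left out. Cox4i1, the common isoform, was at 174 ± 8.44 and 170 ± 3.23 CPM, with a 95% interval of -0.11 to 0.05 in log2.

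Subunit Va (Cox5a) was called higher and subunit Vb (Cox5b) lower. Cox5a went from 59.4 ± 6.53 to 69.1 ± 2.61 CPM and Cox5b from 65.1 ± 5.92 to 56.9 ± 4.09 CPM, both with overlapping groups. Cox5b was highest in GFP replicate 2 (73.2 CPM, the other GFP libraries 59.6 to 65.7). The nuclear falls of complex IV were Cox5b and Cox6b2. Without GFP replicate 2 or under limma only 1 nuclear gene of the complex was called lower. Cox7a2l rose by 7.29%. Isoforms of heart and skeletal muscle were near 0: Cox7a1 had 1 to 6 counts a library, Cox6a2 had 0 to 11 and Cox8b had 2 counts in all, while their ubiquitous partners Cox7a2, Cox6a1 and Cox8a were at 31.3, 120 and 140 CPM in GFP and not called with all libraries. Cox8a was called lower without OEIRF7 replicate 4 (log2 fold change -0.10, edgeR adjusted p = 0.0289).

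Within a library, the log2 ratio of an isoform to its partner depends on library scaling only through the prior count. Of 8 pairs, 5 could be tested by an exact two-sided permutation test over the libraries, for which 4 against 4 cannot give a p below 0.029. Cox4i2 to Cox4i1 rose by 1.11, Ndufa4l2 to Ndufa4 by 0.75 and Atp5g3 to Atp5g2 by 0.52, and Cox6b2 to Cox6b1 fell by 2.0. For these 4 pairs the groups did not overlap (exact permutation p = 0.0286, adjusted over the 5 pairs 0.0357). Atp5g1 to Atp5g2 differed by 0.07 with overlapping groups (exact permutation p = 0.543). Without GFP replicate 1, whose Cox4i2 count was 2, the Cox4i2 to Cox4i1 difference was 0.70, and without any 1 OEIRF7 library it was 1.03 to 1.21. The p-values of an exact test of 4 libraries against 3 move in steps too coarse to say whether a call is stable, so none is given here.

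**Figure D4:**
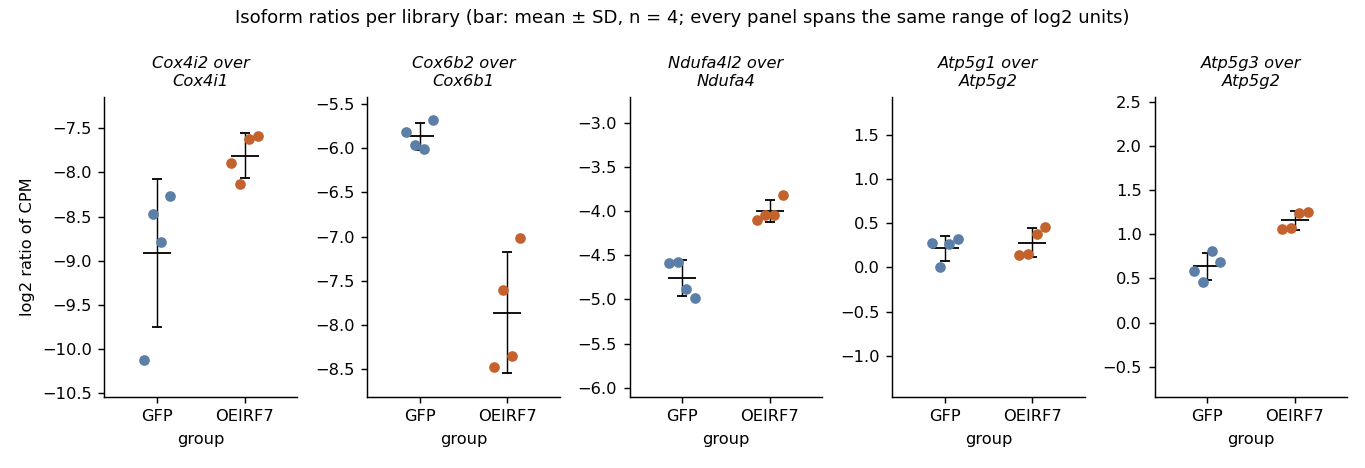
Log2 ratio of CPM between 2 genes of the same subunit in each library (points), with mean ± SD (n = 4 a group) and the same span of log2 units in every panel. The groups are apart for Cox4i2, Cox6b2, Ndufa4l2 and Atp5g3 and overlap for Atp5g1 over Atp5g2.

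In complex V, 2 nuclear genes were higher, 4 were lower and 11 were not called of 17 tested (35.3% called, against 58.9% of all tested genes). The number called higher was 8 without GFP replicate 2, 0 without GFP replicate 1, GFP replicate 4 or OEIRF7 replicate 1, 1 without OEIRF7 replicate 2 or with a minimum of 1 count in total, and 5 with library sizes only or with the replicate number as a block. The number called lower was 2 under limma. Among the falls were Atp5g1 and Atp5g2, which with Atp5g3 encode the same c subunit of the membrane rotor. Atp5g1 (chr11:96068852-96075670) was at 57.2, 61.6, 59.3 and 57.7 CPM in GFP and 46.1, 44.6, 47.7 and 50.8 CPM in OEIRF7. Atp5g2 (chr15:102662864-102672352) was at 47.4, 61.3, 49.3 and 46.2 CPM in GFP and 41.9, 40.0, 36.8 and 36.9 CPM in OEIRF7. All OEIRF7 libraries lay below all GFP libraries for both genes, with log2 fold changes of -0.32 ± 0.05 and -0.39 ± 0.08 (SE; edgeR adjusted p = 3.26e-05 and 0.000606).

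Atp5g3 (chr2:73908447-73911326) went the other way, from 79.2 ± 7.57 to 86.8 ± 1.59 CPM, and was not called (log2 fold change 0.13 ± 0.06 SE, edgeR adjusted p = 0.0537). It was called under several alternatives, such as without GFP replicate 2 (edgeR adjusted p = 0.0257). Atp5l, a stalk-associated membrane subunit, fell by 12.5% with overlapping groups. Atp5b fell by 4.90%, from 873 ± 15.5 to 831 ± 14.7 CPM, whereas its partner in the catalytic head, Atp5a1, was at 425 and 421 CPM with an interval of -0.08 to 0.05 in log2. Atp5j2 and Atp5d were higher by 9.16% and 6.77%. Neither was called higher without GFP replicate 1, GFP replicate 4 or OEIRF7 replicate 1. The call of Atp5j2 was also lost without GFP replicate 3 or OEIRF7 replicate 2 or 4 and under limma (limma adjusted p = 0.0816 and 0.0811 with the 2 pseudocounts). Reads shared with processed pseudogenes, which many of these nuclear genes have, may add to or be lost from these counts.

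**Figure D5:**
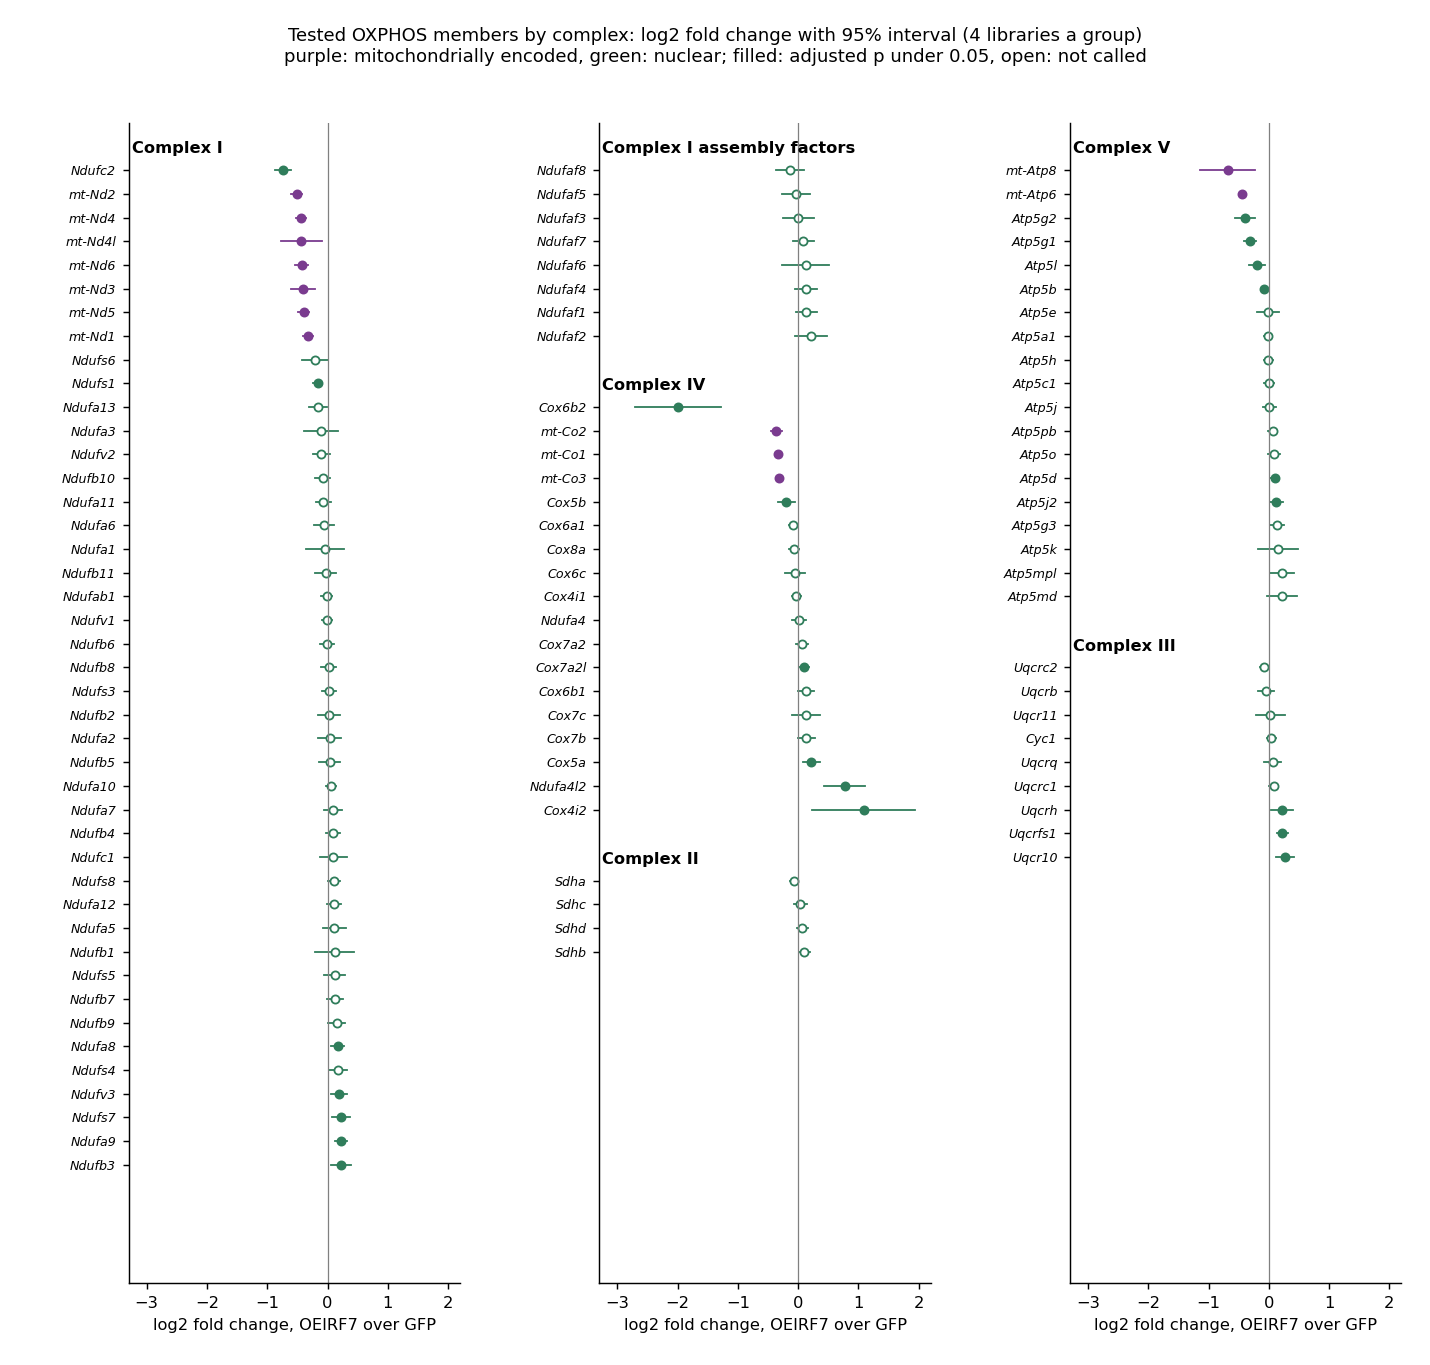
Log2 fold change with its 95% interval for the tested members, 1 left out, by complex (purple for mitochondrially encoded, green for nuclear, filled for an adjusted p under 0.05). All 12 purple points lie below 0, and most green points lie within 0.22 of 0, with Cox6b2 (-2.0), Ndufc2 (-0.74), Ndufa4l2 (0.77) and Cox4i2 (1.09) farthest out.

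RefSeq promoter windows (GRCm38.p6) of 300 bases, 250 before and 50 after the start, were matched by symbol for 77 of 96 distinct nuclear members. Motifs of 5 factors or elements were searched on both strands as exact letters, N being any base, and none of the 5 is contained in another. The NRF1 motif GCGCNTGCG was in 26 of 77 member windows (33.8%) and 7.12% of the windows of 27025 genes. The YY1 motif AANATGGCG was in 14.3% against 2.76%, and the ETS or GABP motif ACTTCCG in 15.6% against 7.20%. Shares were alike for GAAANNGAA (9.09% and 9.76%) and the hypoxia response element ACGTGC (5.19% and 6.68%). GAAANNGAA is the first part of the longer interferon response element given by the paper. A match to it need not be the full element. By call, the NRF1 motif was in 3 of 12 windows of members called higher, 2 of 7 of members called lower and 21 of 55 of those not called. GAAANNGAA was in 1 of 12, 1 of 7 and 5 of 55. A match in these letters is a description and does not show binding.

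The windows of the c subunit genes are shown because Atp5g1 and Atp5g2 fell where Atp5g3 did not, and that of Uqcr10 because it had the largest called rise among nuclear members of at least 5 CPM. Ndufc2 had the largest called fall among them. Its window held none of the 5 motifs and is not printed. Motif matches are in capitals, 5' to 3' on the strand of the gene.
Atp5g1, chr11:96075582-96075881, minus strand: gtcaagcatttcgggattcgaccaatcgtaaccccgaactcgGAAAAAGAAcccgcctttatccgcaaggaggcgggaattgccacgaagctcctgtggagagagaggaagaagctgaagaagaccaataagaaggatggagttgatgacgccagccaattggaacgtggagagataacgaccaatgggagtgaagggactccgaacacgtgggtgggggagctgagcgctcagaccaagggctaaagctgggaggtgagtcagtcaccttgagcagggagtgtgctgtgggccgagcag
Atp5g2, chr15:102670998-102671297, minus strand: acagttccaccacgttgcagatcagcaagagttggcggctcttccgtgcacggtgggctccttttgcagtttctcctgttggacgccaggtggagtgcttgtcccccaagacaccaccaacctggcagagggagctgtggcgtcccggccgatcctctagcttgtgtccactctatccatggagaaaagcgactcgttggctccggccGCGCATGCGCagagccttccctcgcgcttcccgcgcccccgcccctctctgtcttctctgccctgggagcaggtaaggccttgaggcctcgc
Atp5g3, chr2:73911277-73911576, minus strand: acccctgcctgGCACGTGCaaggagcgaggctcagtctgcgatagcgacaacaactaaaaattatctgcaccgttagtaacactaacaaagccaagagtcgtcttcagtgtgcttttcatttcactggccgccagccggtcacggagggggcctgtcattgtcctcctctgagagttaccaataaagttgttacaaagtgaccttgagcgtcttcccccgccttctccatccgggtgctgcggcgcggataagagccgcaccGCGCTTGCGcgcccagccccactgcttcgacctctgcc
Uqcr10, chr11:4704295-4704594, minus strand: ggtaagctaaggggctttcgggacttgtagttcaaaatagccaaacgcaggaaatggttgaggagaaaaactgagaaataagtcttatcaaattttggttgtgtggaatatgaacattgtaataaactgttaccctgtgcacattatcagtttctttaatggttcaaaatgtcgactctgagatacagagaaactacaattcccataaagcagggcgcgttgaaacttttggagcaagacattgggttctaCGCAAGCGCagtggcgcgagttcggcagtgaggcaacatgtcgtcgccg
The NRF1 motif was in the windows of Atp5g2, Atp5g3 and Uqcr10, and the hypoxia response element, on both strands, in that of Atp5g3. The window of Atp5g1 held GAAANNGAA, the first part of the interferon response element. The next base there is C, where the longer element given by the paper has A, so the match is not the full element.

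Genes that work beside the complexes were described from lists of their own. Of 16 genes of mitochondrial DNA copying and transcription, 3 were higher and 4 were lower (43.8% called, against 58.9% of all tested genes). Tfb2m, a transcription factor that the mitochondrial RNA polymerase needs to start, was at 24.1, 20.7, 24.8 and 21.3 CPM in GFP and 13.4, 12.7, 15.3 and 13.5 CPM in OEIRF7. Its groups were far apart, with a log2 fold change of -0.73 ± 0.08 (SE; edgeR adjusted p = 1.41e-06). Top1mt, the mitochondrial topoisomerase, rose by 0.53 and Mterf4 by 0.40 on the log2 scale. Of genes outside the naming rule and picked after their values were seen, Tfam, which packages mitochondrial DNA, was at 22.5 ± 0.679 and 23.0 ± 0.953 CPM and not called, and the polymerase Polrmt was at 22.8 ± 2.09 and 20.3 ± 0.412 CPM (log2 fold change -0.17 ± 0.07 SE, edgeR adjusted p = 0.0402).

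Of 20 genes of mitochondrial RNA processing and stability, 9 were higher and 3 were lower (60% called, against 58.9% of all tested genes). Fastkd5, which acts in the processing of mitochondrial transcripts, rose from 12.6 ± 1.14 to 19.4 ± 1.10 CPM and Supv3l1, the helicase of the mitochondrial RNA degradosome, from 16.5 ± 0.643 to 22.2 ± 0.728 CPM. Grsf1, an RNA-binding protein of the mitochondrial RNA granules, fell from 65.6 ± 2.12 to 50.6 ± 2.65 CPM (log2 fold change -0.37 ± 0.04 SE, edgeR adjusted p = 4.69e-06). None of these 3 genes had overlapping groups.

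Of 13 tested nuclear regulators of OXPHOS genes, 7 were higher and 2 were lower (69.2% called, against the same 58.9%). Perm1, a regulator of muscle mitochondrial genes, rose by 0.73 ± 0.14, Nrip1, a corepressor of mitochondrial genes, by 0.48 ± 0.04 and Pprc1, a coactivator of the PGC-1 family, by 0.30 ± 0.04 on the log2 scale (SE). All 3 had every OEIRF7 library above every GFP library. Ppargc1a, named after its values were seen, was at a low level, with 0.634, 0.200, 0.648 and 0.534 CPM in GFP and 1.09, 0.9996, 1.22 and 1.38 CPM in OEIRF7 (log2 fold change 1.20 ± 0.31 SE, edgeR adjusted p = 0.00372).

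Assembly factors outside the symbol rule gave 11 higher and 8 lower of 45 tested (42.2% called, against 58.9% of all tested genes). Coa7, a factor for complex IV, rose from 6.29 ± 0.219 to 10.9 ± 0.581 CPM and Higd1a, a small inner membrane protein of the respiratory complexes, from 29.1 ± 3.25 to 45.0 ± 4.51 CPM, whereas Cox20, a chaperone of the mt-Co2 protein, fell from 8.29 ± 0.6996 to 5.17 ± 0.374 CPM. Of 8 tested genes of ATP export and phosphate import 3 were higher and 2 were lower (62.5% called). Slc25a4, the heart and muscle isoform of the ADP/ATP carrier, was at 349, 366, 358 and 346 CPM in GFP and 260, 261, 256 and 263 CPM in OEIRF7 (log2 fold change -0.45 ± 0.03 SE, edgeR adjusted p = 1.24e-08). Its groups were wide apart, whereas Vdac2, an outer membrane channel, fell by 0.14 and Ucp2, an inner membrane carrier, rose by 0.32 on the log2 scale. The call of Vdac2 was lost under limma (limma adjusted p = 0.053 and 0.0519 with the 2 pseudocounts). Of 21 electron carriers and enzymes feeding ubiquinone 6 were higher and 5 were lower (52.4% called). Coq8a fell by 0.90 and Coq4 and Pdss1 rose by 0.51 and 0.48 on the log2 scale, all 3 in ubiquinone synthesis and the last 2 with overlapping groups. Under limma Coq8a fell by 0.22 or 0.44, depending on the pseudocount, and was not called (limma adjusted p = 0.275 and 0.279), and neither was Coq4 (limma adjusted p = 0.0534 and 0.0514). The call of Pdss1 was lost without GFP replicate 1 or 4 or OEIRF7 replicate 2 or 3 (edgeR adjusted p = 0.0724, 0.0615, 0.0509 and 0.0935).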

How the data were processed

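Per the labels and the study's methods, 8 RNA libraries of TGF-β-treated mouse cardiac fibroblasts were sequenced. The authors trimmed reads with Trimmomatic, aligned them to GRCm38 with HISAT2 and deposited raw read counts per gene from HTSeq-count, and FPKM values from Cufflinks. Versions, strand setting and treatment of reads shared between genes are not given in the sources used here, and labels and methods name different RNA and library kits. The authors' group mean FPKM, log2 fold changes, p-values and FDR values were deposited beside them and were not used. All 8 count columns carry a sample name, and 121 symbols damaged by a text replacement were restored by gene ID.

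Counts were tested with edgeR 4.0.16 in R 4.3.3 (TMM factors, filterByExpr, glmQLFit and glmQLFTest, Benjamini-Hochberg over 13533 genes, threshold 0.05), 4 against 4 libraries with no covariate. CPM used TMM-scaled library sizes, and isoform ratios a prior count of 2. Replicate libraries differed beyond counting noise and were counted singly. The fits were tested on simulated data. Alternatives were DESeq2 1.42.0, limma 3.58.1 on log2(FPKM + 1) and log2(FPKM + 0.1), other scalings and filters, the replicate number as a block, a fold change of 1.5, each library left out and, chosen after seeing the data, a length trend removed per library.

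Members and gene lists were chosen with earlier results of these data known. Named were, of members with adjusted p under 0.05 and a mean of at least 1 CPM, the 12 largest rises and 12 largest falls; all mitochondrially encoded protein genes; both genes of each isoform pair; Sdha to Sdhd and Cyc1; the 3 largest changes of each other list; Irf7; and by counts only those below the filter. Nuclear genes named beyond these (Ndufs1, Cox5b, Cox7a2l, Atp5l, Atp5b, Atp5d, Ndufv1, Atp5a1) were chosen after their values were seen. Their calls under the alternatives are given as counts by complex, not gene by gene, apart from what these counts show for Atp5d. Coa1 and Fastkd4 of the lists were not matched by symbol. The values of 1 member are not reported here.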

Additional observations from a re-analysis of the deposited data

Results flagged for a closer look

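In 136 groups of 4 libraries of named genes, 7 held a library far from the other 3 by Dixon's test, where chance flags about 1 in 20 groups. GFP replicate 2 was such a library for 4 genes: it was high for mt-Atp8 (161 CPM, the others 83.9 to 96.5), mt-Nd4l (262 CPM, the others 142 to 158) and Ndufa4 (72.6 CPM, the others 61.7 to 63.2), and low for Fastkd5 (10.9 CPM, the others 13.0 to 13.3). GFP replicate 3 was high for Ndufa9 (49.9 CPM, the others 44.1 to 45.0). OEIRF7 replicate 4 was high for Ndufa4l2 (4.62 CPM, the others 3.76 to 3.89) and OEIRF7 replicate 3 for Higd1a (51.7 CPM, the others 42.3 to 43.2).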

How the results depend on the processing

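Of the counts and ratios that answer a comparison, 179 values under an alternative were classed as unchanged and 32 as changed. A count could shift and still be classed as unchanged. Mitochondrial members called lower, for instance, were 12 in the main fit and 10 under DESeq2. Members called higher, all of them nuclear, were 15, and 26 with library sizes only, 23 with the replicate block, 2 with a fold change of 1.5 added and between 7 and 33 with a library left out. Nuclear members called lower were 8, and 4 under limma with either pseudocount, 15 with the length trend removed and 2 with the fold rule, under which all members called lower were 3 and mitochondrial ones 1. The cause of these shifts was not tested. Same-numbered libraries deviated together with correlations of 0.0792, 0.0953, 0.138 and 0.104, and every library correlated best with its own number, but nothing in the labels ties the numbers to a shared batch. With the pairing as a replicate block the isoform differences were 1.11 (Cox4i2), -2.0 (Cox6b2), 0.75 (Ndufa4l2) and 0.52 (Atp5g3), adjusted p = 0.156 by an exact sign-flip permutation test that cannot go below 0.125 unadjusted, so their calls were lost by construction. With a library left out they ranged from 0.70 to 1.32 (Cox4i2), -2.28 to -1.79 (Cox6b2), 0.68 to 0.81 (Ndufa4l2) and 0.46 to 0.58 (Atp5g3), where an exact test of 4 libraries against 3 has p-values too coarse to bear on stability, and Atp5g1 over Atp5g2 ranged from -0.0048 (without GFP replicate 2) to 0.11. Depth limits Cox6b2 and Cox4i2, which had at most 32 and 20 counts in a library.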
